A study of Danio rerio with 8 samples.

Results

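The Sox genes of neural progenitors and young neurons were followed in heads of zebrafish larvae that lack *mtmr5*. The set holds 10 genes chosen by name, the SoxB1 genes *sox1a*, *sox1b*, *sox2*, *sox3*, *sox19a* and *sox19b* and the SoxC genes *sox4a*, *sox4b*, *sox11a* and *sox11b*. They are 10 of 32520 genes in the count table, and all 10 were among the 19412 genes with enough counts to be tested.

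Sox proteins are transcription factors that bind DNA through a domain of the high mobility group type. In the vertebrate nervous system SoxB1 factors keep dividing neural progenitors in their undifferentiated state, often beside a POU-domain partner, and SoxB2 factors oppose them. SoxC factors follow as cells leave the cycle, and in mouse and chick they turn on genes that all young neurons share. The teleost genome duplication left most of these genes in pairs, marked a and b.

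Polyadenylated RNA was sequenced from 4 libraries of *mtmr5*-KO heads and 4 of WT heads, collected at 7 days post-fertilisation (dpf). All larvae were of the AB strain. The *mtmr5*-KO larvae were homozygous for a CRISPR/Cas9 deletion of the full gene, in a line that lacks it in every tissue. The paper calls the WT larvae siblings. Each library pooled the heads of several genotyped larvae, and replicates came over time from different breeding pairs. The tissue named brain-enriched also held eyes, skin, muscle and cartilage.

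Total counts were 16104181 to 19170140 in *mtmr5*-KO libraries and 20514932 to 22761120 in WT libraries. The targeted gene, *sbf1* in the table, had 63, 55, 42 and 26 raw counts in the *mtmr5*-KO libraries and 2545, 1939, 2008 and 1894 in the WT libraries, low where the labels say that the gene was deleted. Neuronal markers such as *elavl3* and *snap25a* were abundant in all 8 libraries. The *mtmr5*-KO libraries stood apart in their composition, with 18.6% to 26.6% of counts from the 13 mitochondrially encoded genes, against 6.43% to 8.82% in WT libraries. Levels below are TMM-scaled counts, which are counts brought to a common depth by trimmed mean of M-values factors. On that scale the median log2 fold change of all tested genes was -0.02, whereas scaling by library totals moved it to -0.98. How much of this gap came from the mitochondrial counts was not tested. Nor was it tested which scale lies closer to the true levels.

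Most SoxB1 genes and *sox4a* were lower in *mtmr5*-KO heads, while *sox11a* was higher on the TMM scale. At an adjusted p under 0.05 (edgeR's quasi-likelihood test, Benjamini-Hochberg adjustment over all tested genes), 4 of the 6 were lower, 0 were higher, and all 6 had a negative log2 fold change, with a median of -0.77, beside -0.02 over all tested genes. The SoxC genes split, with *sox4a* lower, *sox11a* higher and the other 2 not called, and their median was 0.18. Over all 10 genes, 5 were lower, where 7.51% of all tested genes were lower, and 1 was higher, where 13.5% were. The 5 lower calls (*sox1a*, *sox1b*, *sox2*, *sox19a* and *sox4a*) held with any single library left out, at an adjusted p of 0.0242 or less. In bulk heads, fewer cells of a type and less RNA per cell cannot be told apart.

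**Figure D1:**
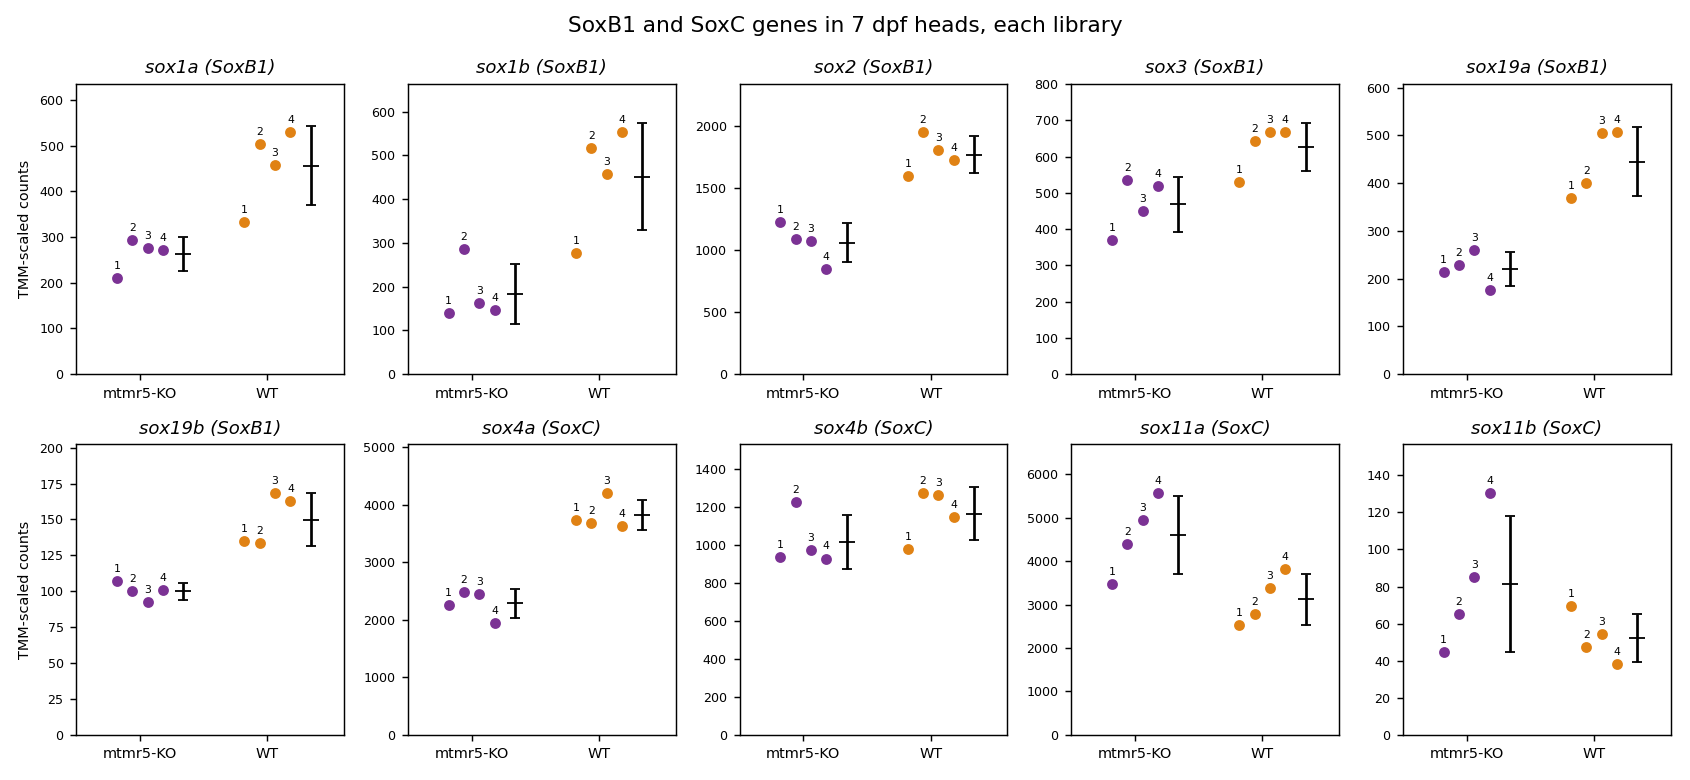
TMM-scaled counts of the 6 SoxB1 and 4 SoxC genes, each from 0, with a point for each *mtmr5*-KO library (left, purple) and WT library (right, orange), numbered by replicate, and bars for mean and SD (n = 4 each). The *mtmr5*-KO points lie wholly below the WT points for *sox1a*, *sox2*, *sox19a*, *sox19b* and *sox4a*, and for *sox11a* 3 of 4 lie above every WT point.

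*sox2*, which maintains neural stem cells and also marks Müller glia and inner ear supporting cells, had 1231, 1088, 1076 and 851 TMM-scaled counts in the *mtmr5*-KO libraries. In the WT libraries it had 1599.7, 1954, 1810.4 and 1725. Every *mtmr5*-KO library lay below every WT library. Its log2 fold change was -0.74 ± 0.15 (SE), a level of 59.9% of WT, at an adjusted p of 0.0019 in edgeR's quasi-likelihood test.

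*sox19a* is a fish SoxB1 gene of the early neural plate and its progenitors. It had 214, 228, 261 and 175 TMM-scaled counts in *mtmr5*-KO libraries, against 368, 399, 506 and 507 in WT libraries, so the groups did not overlap. It was the SoxB1 gene with the smallest p, at 49.4% of WT (log2 fold change -1.02 ± 0.18, edgeR adjusted p = 0.0007).

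Its duplicate *sox19b*, known for supplying maternal SoxB1 protein when the embryonic genome first becomes active, had 107, 100.1, 92.4 and 101 TMM-scaled counts in *mtmr5*-KO libraries. The WT libraries had 135, 133, 169 and 163. These groups did not overlap either, and the SD within *mtmr5*-KO was 6.01 around a mean of 100.1. A log2 fold change of -0.58 ± 0.21 nevertheless missed the threshold in edgeR (adjusted p = 0.0638). DESeq2 called it lower (adjusted p = 0.0239), as did edgeR with TMM factors set without mitochondrial genes, crystallins and the 20 most abundant rows (adjusted p = 0.0488). It was not called by limma-voom (adjusted p = 0.0812). In edgeR it was not called with upper quartile scaling (0.0843), with the replicate number as a block (0.0738) or with any single library left out (0.0577 to 0.183).

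*sox1a* and *sox1b* are the duplicates of Sox1, which in mouse marks neuroepithelium and is needed for crystallin expression in lens fibre cells. *sox1a* had 209.7, 293, 277 and 272 TMM-scaled counts in *mtmr5*-KO libraries and 334, 503, 458 and 529.9 in WT libraries, with no overlap. Its log2 fold change was -0.79 ± 0.18, at 57.7% of WT (edgeR adjusted p = 0.0053).

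*sox1b* had the most negative log2 fold change of the 10 genes, -1.29 ± 0.26, at 40.9% of WT (edgeR adjusted p = 0.0019). It had 139, 286, 163 and 145.5 TMM-scaled counts in *mtmr5*-KO libraries, against 277, 518, 458 and 554 in WT libraries. Replicate 2 of *mtmr5*-KO stood well above its group and just above WT replicate 1, so here the groups overlapped. With only *mtmr5*-KO replicates 1 and 2 kept, the log2 fold change of *sox1b* was -1.11 and the call was lost (edgeR adjusted p = 0.0536).

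*sox3*, a progenitor gene that overlaps with *sox2* in its roles, was the SoxB1 gene closest to WT. It had 369, 535, 449 and 519 TMM-scaled counts in *mtmr5*-KO libraries and 529, 643.5, 668 and 668 in WT libraries. A single *mtmr5*-KO library, replicate 2, exceeded a single WT library, replicate 1. The log2 fold change of -0.42 ± 0.16 was not called (edgeR adjusted p = 0.0706, 95% interval -0.76 to -0.09). It was called with replicate 2 of *mtmr5*-KO left out (-0.51, adjusted p = 0.0464) and with the replicate number as a block (-0.43, adjusted p = 0.0188). TMM factors set without mitochondrial genes, crystallins and the 20 most abundant rows gave a call as well (-0.46, adjusted p = 0.0492). With any other single library left out it was not called (adjusted p of 0.0514 to 0.173). Nor was it called in DESeq2 (adjusted p = 0.0516) or with upper quartile scaling in edgeR (adjusted p = 0.112).

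Among the SoxC genes, *sox4a* was lower, as the called SoxB1 genes were, and *sox11a* was not. *sox4a*, an orthologue of the Sox4 of newborn neurons and many other developing cells, had 2264, 2478, 2456 and 1946 TMM-scaled counts in *mtmr5*-KO libraries. The WT libraries had 3739, 3691, 4209 and 3636, all above every *mtmr5*-KO library. The log2 fold change of *sox4a* was -0.74 ± 0.14, a level of 59.9% of WT (edgeR adjusted p = 0.0014).

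Its duplicate *sox4b* had 936, 1228, 972.5 and 929 TMM-scaled counts in *mtmr5*-KO libraries and 977, 1275, 1265 and 1146 in WT libraries. Both groups covered much the same range. Its log2 fold change was -0.20 ± 0.15 and not called (edgeR adjusted p = 0.382), with a 95% interval of -0.51 to 0.12.

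*sox11a*, an orthologue of the Sox11 that is strong in postmitotic young neurons, was the only member called higher. It had 3470.1, 4391.5, 4957 and 5574 TMM-scaled counts in *mtmr5*-KO libraries, against 2520.0, 2780.2, 3386 and 3817 in WT libraries. The groups overlapped, since *mtmr5*-KO replicate 1 lay below WT replicate 4. The log2 fold change was 0.56 ± 0.18, a level of 147% of WT (edgeR adjusted p = 0.0379), and the sign turned when library totals were used as the scale (-0.42, adjusted p = 0.0688). The call was also lost on leaving out *mtmr5*-KO replicate 2, 3 or 4 or WT replicate 1, 2 or 3, with adjusted p of 0.0579 to 0.125 and log2 fold changes of 0.43 or more, and with only *mtmr5*-KO replicates 1 and 2 kept (0.30, adjusted p = 0.317). With the replicate number as a block the edgeR adjusted p was 0.00026, but the sources do not say that a number marks one pair.

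*sox11b*, its duplicate, had few reads, 31 to 70 raw counts in *mtmr5*-KO libraries and 55 to 128 in WT libraries. It had 44.8, 65.4, 85.1 and 131 TMM-scaled counts in *mtmr5*-KO libraries, against 69.2, 47.6, 54.2 and 38.2 in WT libraries. The *mtmr5*-KO libraries spread widely and overlapped WT. The log2 fold change of 0.63 ± 0.34 was not called (edgeR adjusted p = 0.220) and was -0.41 with library totals. Its 95% interval ran from -0.11 to 1.36. Without *mtmr5*-KO replicate 4 alone it was 0.28, and with only *mtmr5*-KO replicates 1 and 2 kept it was 0.04.

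Counted by separation, 5 of the 10 genes had every *mtmr5*-KO library below every WT library, where 11.0% of all tested genes did. In the other direction, 0 of the 10 had every *mtmr5*-KO library above every WT library, where 13.9% of all tested genes did. At an adjusted p under 0.01 with a log2 fold change under -1, the thresholds used in the study, *sox1b* and *sox19a* remained as 2 of the 10, beside 1.08% of all tested genes.

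Scaling by library totals set all 10 log2 fold changes below 0, from -2.18 for *sox1b* to -0.41 for *sox11b*, and called 8 members lower and 0 higher, where 55.7% of all tested genes were lower and 3.70% higher. Set against the all-gene median on that scale, *sox11a* lay 0.56 above it and *sox4a* 0.72 below it (-0.72), while *sox2* was at -0.70 and *sox19a* at -0.996 relative to it.

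**Figure D2:**
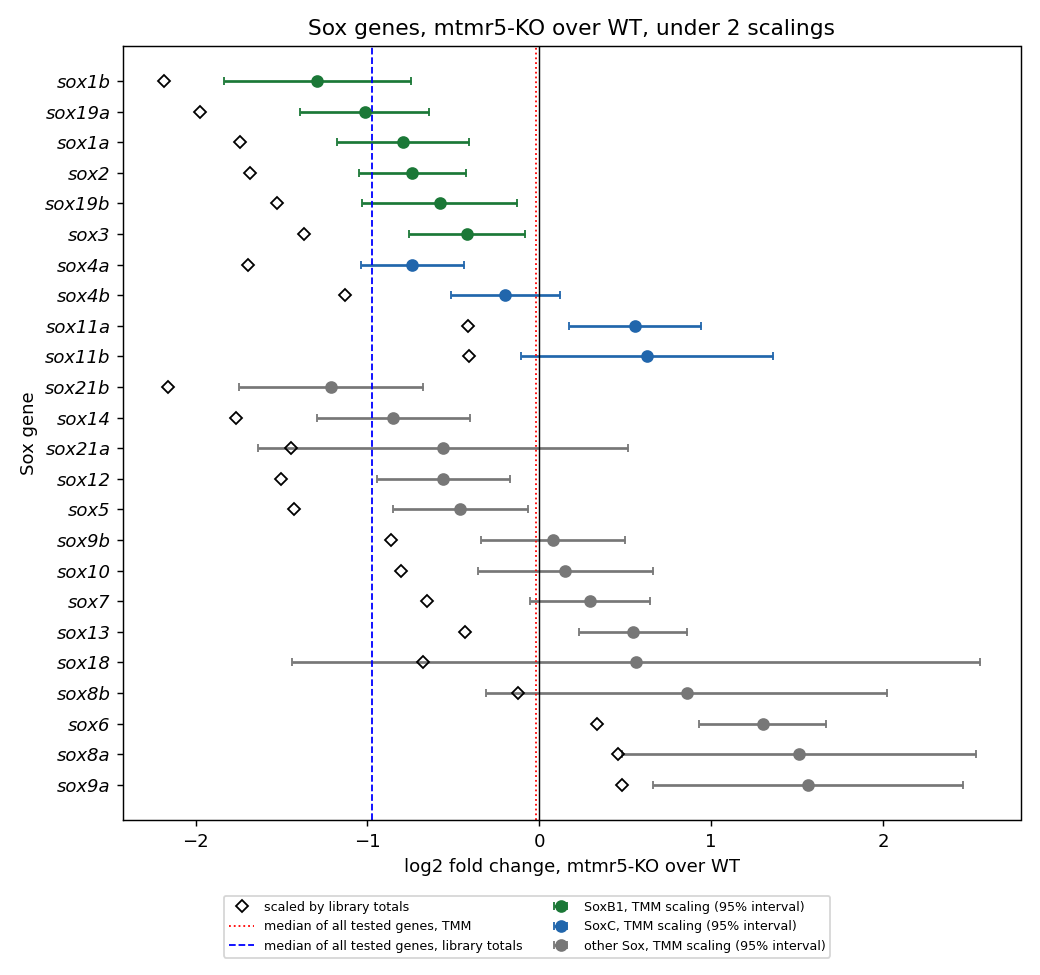
Log2 fold changes (*mtmr5*-KO over WT) of the 24 tested Sox genes, with filled points and 95% intervals for TMM scaling (SoxB1 green, SoxC blue, other Sox grey), open diamonds for library totals, and vertical lines for the all-gene medians, -0.02 with TMM and -0.98 with library totals. The SoxB1 points and *sox4a* lie left of the all-gene median on either scale, and *sox11a* and *sox11b* lie right of it on either scale although their library-total values are negative.

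The question of how neuronal SoxC stood against progenitor SoxB1 can be put without any scaling between libraries, as a ratio of raw counts within a library. The summed SoxC counts over the summed SoxB1 counts were 2.96, 3.23, 3.65 and 4.16 in *mtmr5*-KO libraries and 2.25, 1.88, 2.19 and 2.08 in WT libraries. The lowest *mtmr5*-KO value exceeded the highest WT value, with means of 3.50 ± 0.525 in *mtmr5*-KO and 2.101 ± 0.165 in WT libraries (SD, n = 4 each). No test was made of this ratio, since it is a score over genes chosen with results known.

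The SoxB1 and SoxC sums themselves depended on the scale. The TMM-scaled SoxB1 sum was 2063 to 2531 in *mtmr5*-KO libraries, against 3242 to 4151 in WT libraries. The SoxC sum was 6715 to 8579 in *mtmr5*-KO libraries and 7306 to 8914 in WT libraries, so it overlapped. As CPM, or counts over the library total, both sums were lower without overlap. SoxB1 was at 66.8 to 115 CPM in *mtmr5*-KO and 267 to 293 CPM in WT libraries. SoxC was at 244 to 371 CPM in *mtmr5*-KO and 547 to 642 CPM in WT libraries. With library totals, however, 55.7% of all tested genes were lower, and their median log2 fold change was -0.98. The mean SoxC sum in *mtmr5*-KO libraries was 0.50 of that in WT libraries as CPM and 0.98 with TMM. For SoxB1 these values were 0.31 and 0.59. When each gene was given equal weight, as the mean log2 level of the SoxC genes minus that of the SoxB1 genes, the values were 1.55 to 2.04 in *mtmr5*-KO libraries and 0.684 to 1.17 in WT libraries, again without overlap.

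The separation of the summed-count ratio rested on *sox11a*. Without it, the remaining SoxC counts over SoxB1 counts were 1.43 to 1.52 in *mtmr5*-KO libraries (mean 1.47 ± 0.038), against 1.16 to 1.48 in WT libraries (mean 1.30 ± 0.144), and the groups overlapped. This alternative was chosen after the values were seen. Adding *sox12*, the third vertebrate SoxC gene, gave 3.70 ± 0.512 in *mtmr5*-KO and 2.28 ± 0.213 in WT libraries.

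**Figure D3:**
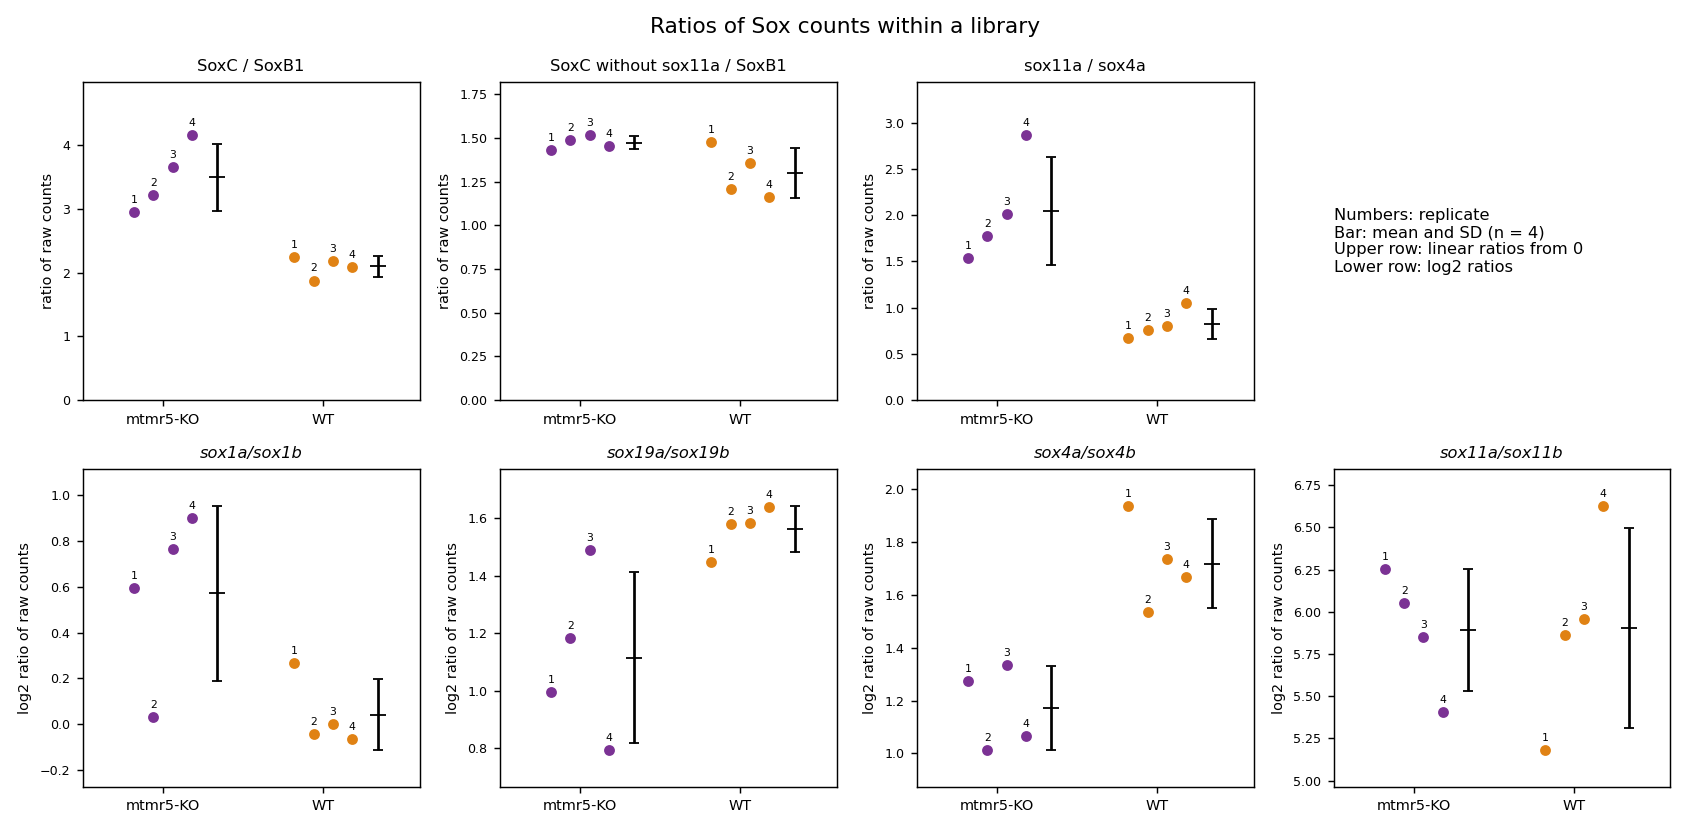
Ratios of raw Sox counts within each *mtmr5*-KO library (left, purple) and WT library (right, orange), with linear class and *sox11a*/*sox4a* ratios above and log2 ratios of the 4 duplicate pairs below, and bars for mean and SD (n = 4 each). SoxC over SoxB1 and *sox11a* over *sox4a* separate the genotypes upwards and *sox4a* over *sox4b* downwards, while the class ratio without *sox11a* overlaps.

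The raw counts behind the class ratio were also put as shares of the 10-gene counts. These shares restate those counts and are not separate evidence. Within such a sum, a larger share of *sox11a* makes the remaining shares smaller. *sox11a* supplied 38.6%, 41.1%, 45.9% and 52.4% of the 10-gene counts in *mtmr5*-KO libraries, against 23.9%, 23.3%, 26.1% and 29.9% in WT libraries. *sox4a* supplied 25.2%, 23.2%, 22.8% and 18.3% in *mtmr5*-KO libraries, against 35.5%, 30.9%, 32.4% and 28.4% in WT libraries. For neither gene did the groups overlap, the *sox11a* share being larger in *mtmr5*-KO than in WT libraries and the *sox4a* share smaller.

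The ratio of *sox11a* to *sox4a* counts, which was picked after the values were seen and not tested, was 1.53, 1.77, 2.02 and 2.86 in *mtmr5*-KO libraries. In WT libraries it was 0.674, 0.753, 0.804 and 1.05. The shares of *sox1a*, *sox3* and *sox19a* were also lower in every *mtmr5*-KO library than in any WT library. They were 2.55% ± 0.165, 4.54% ± 0.468 and 2.15% ± 0.355 of the 10-gene counts in *mtmr5*-KO libraries. The WT libraries had 3.76% ± 0.502, 5.19% ± 0.158 and 3.67% ± 0.304. In TMM-scaled counts, however, the groups overlapped for *sox3*. The share of *sox2* was 10.5% ± 2.37 in *mtmr5*-KO and 14.7% ± 1.29 in WT libraries and overlapped, and *sox4b* held 9.91% ± 1.28 in *mtmr5*-KO and 9.66% ± 0.748 in WT libraries. Summed over the 10 genes, the counts came to 311 to 486 CPM in *mtmr5*-KO libraries, against 838 to 935 CPM in WT libraries. CPM uses library totals, a scale on which 55.7% of all tested genes were lower.

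**Figure D4:**
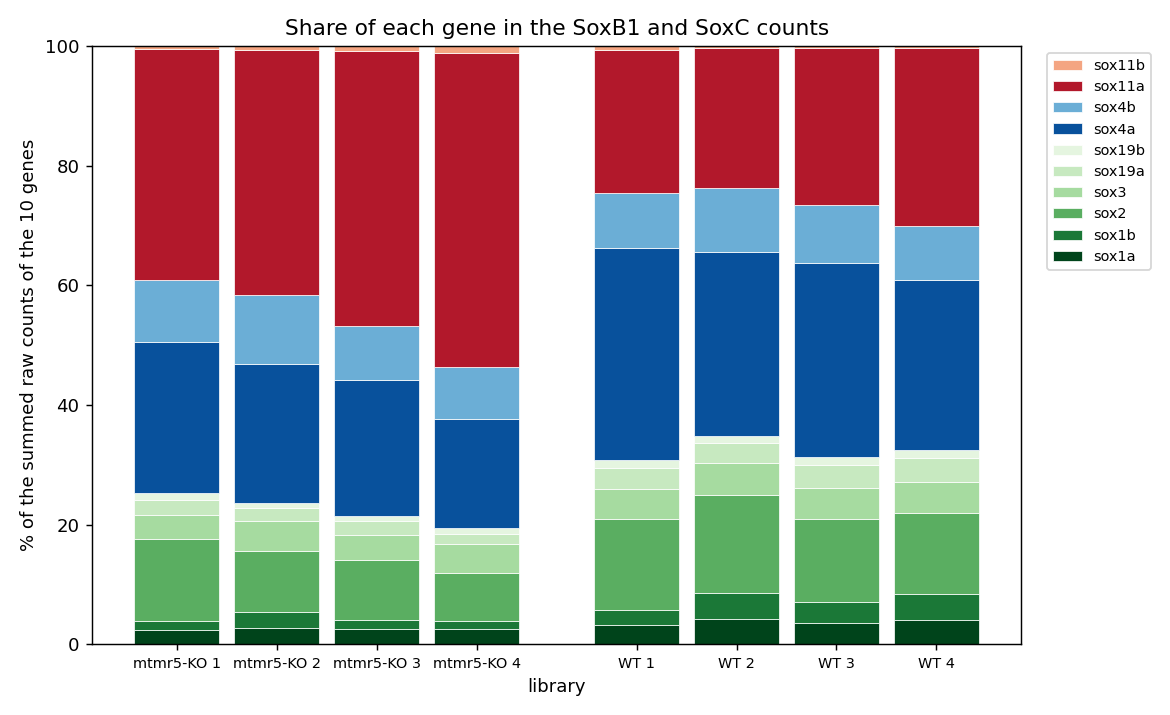
Share of each gene in the summed raw counts of the 10 SoxB1 and SoxC genes, as stacked bars to 100% for the 4 *mtmr5*-KO libraries (left) and the 4 WT libraries (right), with SoxB1 genes in green, *sox4a* and *sox4b* in blue and *sox11a* and *sox11b* in red. *sox11a* takes 38.6% to 52.4% of the counts in *mtmr5*-KO libraries and 23.3% to 29.9% in WT libraries.

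Each pair of duplicates was compared by the log2 ratio of its raw counts within a library, with a two-sided exact permutation test between genotypes, for which 4 against 4 libraries allow no p under 0.0286. For *sox4a* over *sox4b* the log2 ratio was 1.27, 1.01, 1.34 and 1.07 in *mtmr5*-KO libraries and 1.94, 1.53, 1.73 and 1.67 in WT libraries. All *mtmr5*-KO values lay below all WT values, a difference of -0.55 with an exact p of 0.0286, or 0.0762 after Benjamini-Hochberg adjustment over the 4 pairs.

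*sox1a* over *sox1b* averaged 0.57 ± 0.38 in *mtmr5*-KO and 0.04 ± 0.15 in WT libraries on the log2 scale (SD, n = 4 each, exact permutation p = 0.0571, adjusted 0.0762). The overlap came from *mtmr5*-KO replicate 2, the library in which *sox1b* was high. *sox19a* over *sox19b* averaged 1.12 ± 0.30 in *mtmr5*-KO and 1.56 ± 0.08 in WT libraries (exact permutation p = 0.0571, adjusted 0.0762). *sox11a* over *sox11b* averaged 5.89 ± 0.36 in *mtmr5*-KO and 5.91 ± 0.59 in WT libraries, a difference of -0.02 (exact permutation p = 0.971, adjusted 0.971). No pair passed the adjusted threshold, which this number of libraries could not reach for a single separated pair. The pairs too were of genes chosen with results known, which these p-values do not allow for.

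Across the 8 libraries the closest profiles among the 10 genes crossed the class border. Taken as the root mean square difference of mean-centred log2 levels, which is in log2 units and smaller for like profiles, *sox2* and *sox4a* lay 0.13 apart, the smallest distance of any pair. *sox4a* to *sox19b* and *sox3* to *sox4b* were both at 0.18. *sox11a* was 0.43 from its nearest neighbour, *sox11b*. These distances describe 8 shared libraries in 2 genotypes and were not tested.

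Among 9019 other named genes, each averaging 100 TMM-scaled counts or more, the profile nearest to *sox2* was that of *chmp4ba*, an ESCRT-III subunit gene, at a distance of 0.035 (log2 fold change -0.78). It was followed by *pfdn5*, a prefoldin subunit gene, at 0.084 (-0.66), and *smad6b*, a gene of an inhibitory Smad, at 0.089 (-0.86). Nearest to *sox11a* was *lhx9*, a LIM-homeodomain gene of diencephalic and other neurons, at 0.036 (0.54). *dennd2b*, which encodes a DENN-domain protein, at 0.044 (0.54), and *cadm4*, a cell adhesion gene, at 0.060 (0.62) came next, and all 3 of these had negative values with library totals, as *sox11a* did.

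Among the other Sox genes, the genes called lower were of the SoxB2 and SoxC groups and those called higher of the SoxD and SoxE groups. Not every member of these groups was called. The SoxD gene *sox5* had a negative log2 fold change (-0.46, edgeR adjusted p = 0.0904). The SoxE genes *sox8b* (0.86, adjusted p = 0.296), *sox9b* (0.08, adjusted p = 0.807) and *sox10* (0.15, adjusted p = 0.702) were not called either. The table held 16 other rows named as Sox genes, of which 14 were tested, with 4 higher (13.5% over all tested genes), 3 lower (7.51%) and a median log2 fold change of 0.22. With library totals 0 were higher and 8 lower, where 3.70% and 55.7% of all tested genes were. *sox21b*, a SoxB2 repressor that counteracts SoxB1, had 63.6, 128, 107 and 112 TMM-scaled counts in *mtmr5*-KO libraries and 164, 229, 298 and 262 in WT libraries. Without overlap, it was at a log2 fold change of -1.21 ± 0.25 (edgeR adjusted p = 0.0028).

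*sox14*, a SoxB2 gene of interneurons in diencephalon and hindbrain, averaged 306 ± 88.9 in *mtmr5*-KO and 552 ± 106 TMM-scaled counts in WT libraries (log2 fold change -0.85, edgeR adjusted p = 0.0093). *sox21a*, at 19.4 ± 8.99 in *mtmr5*-KO and 29.2 ± 13.9 in WT libraries, was not called. *sox12*, which shares the SoxC group with *sox4a* and *sox11a*, averaged 469.9 ± 95.2 in *mtmr5*-KO and 693 ± 140 in WT libraries (-0.56, edgeR adjusted p = 0.0403). Its call was lost without *mtmr5*-KO replicate 3 or 4 or WT replicate 1, 2 or 3 (adjusted p of 0.0553 to 0.133).

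The higher calls among SoxD and SoxE genes depended on the scale. *sox6*, a SoxD gene of oligodendrocyte precursors, muscle and cartilage, averaged 3227 ± 456 in *mtmr5*-KO and 1311 ± 275 TMM-scaled counts in WT libraries (log2 fold change 1.30, edgeR adjusted p = 6.3e-05). *sox13*, also SoxD, averaged 399 ± 35.2 in *mtmr5*-KO and 274 ± 8.70 in WT libraries (0.54, adjusted p = 0.0159), and turned to -0.43 with library totals. The SoxE genes *sox9a*, of cartilage and glia (1.56, adjusted p = 0.0157), and *sox8a* (1.51, adjusted p = 0.0367) were higher as well, and with library totals none of these 4 was called. The *sox9a* call was lost without *mtmr5*-KO replicate 3 or 4 or WT replicate 3 (adjusted p of 0.0522 to 0.0697), and its log2 fold change was 0.59 with only *mtmr5*-KO replicates 1 and 2 kept. The *sox8a* call was lost without *mtmr5*-KO replicate 3 or 4 or WT replicate 2, 3 or 4 (0.0848 to 0.109), and that of *sox13* without WT replicate 2 or 3 (0.0506 to 0.0559).

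The POU-domain partners gave no single direction. Of 8 tested, 3 were higher (13.5% over all tested genes) and 1 was lower (7.51%), with a median log2 fold change of -0.20. *pou2f1b*, of the widely expressed Oct1 type, was at 1.78, *pou2f2b* at 1.52 and *pou2f2a*, of the Oct2 type, at 1.09. *pou3f2b*, an orthologue of the Brn2 that acts beside SoxB1 in neural progenitors, was the lower one (-0.59, edgeR adjusted p = 0.0259). With library totals only *pou2f1b* stayed higher (0.82), and 5 of the 8 were lower, where 55.7% of all tested genes were lower.

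Genes of newborn and differentiating neurons were called in both directions. Of 18 tested, 5 were higher (13.5% over all tested genes) and 4 lower (7.51%), with a median log2 fold change of -0.29. The RNA-binding protein gene *elavl3* of new neurons was higher at 1.23 (55339 ± 8110 TMM-scaled counts in *mtmr5*-KO and 23627 ± 4900 in WT libraries), *onecut1* at 1.15, *elavl4* at 0.99 and *ebf3a* at 0.96. The tubulin gene *tubb5* (-0.82), the stathmin genes *stmn1a* (-0.76) and *stmn2b* (-0.55) and the doublecortin-like *dclk2a* (-0.60) were lower. With library totals, *elavl3* was at 0.26 and none of the 18 was called higher, while 13 were called lower. On that scale 3.70% of all tested genes were higher and 55.7% lower.

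Few proliferation genes passed the test. Of 20 tested, 2 were lower, near the 7.51% of all tested genes, and 0 were higher. A negative log2 fold change was found for 17 of the 20, a larger share than the 51.1% of all tested genes. Their median was -0.45, beside -0.02 over all tested genes. With library totals 18 of the 20 were lower, where 55.7% of all tested genes were. *mki67*, which marks cycling cells, averaged 232 ± 24.6 in *mtmr5*-KO and 445 ± 119 TMM-scaled counts in WT libraries (-0.94, edgeR adjusted p = 0.0032). *mcm7*, a subunit of the replicative helicase, was at -0.50 (adjusted p = 0.0301), while *mcm4* had -0.71 (adjusted p = 0.0546) and *mcm2* -0.63 (adjusted p = 0.0731).

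Markers of several cell types moved with genotype beside these results, and their part in them was not tested. All 7 tested lens markers were lower, where 7.51% of all tested genes were, with a median log2 fold change of -4.58. Their summed TMM-scaled counts were 976 to 9405 in *mtmr5*-KO libraries, against 46845 to 264828 in WT libraries. Within *mtmr5*-KO the lens sum was 6022, 9405, 976 and 1022, and *sox1b* had 139, 286, 163 and 145.5 TMM-scaled counts. Both were highest in replicate 2, as *sox1a*, *sox3*, *sox4a* and *sox4b* also were. Among *mtmr5*-KO libraries replicate 1 had a larger lens sum than replicates 3 and 4 and the lowest *sox1b*. In WT libraries the lens sum was 46845, 264828, 52915 and 212585, and *sox1b* had 277, 518, 458 and 554 TMM-scaled counts. There both were lowest in replicate 1 and higher in replicates 2 and 4 than in replicates 1 and 3, as *sox1a* also was. WT replicate 1 was the lowest for *sox2*, *sox3*, *sox19a*, *sox4b* and *sox11a* as well. A link between lens content and *sox1b* was not tested. Neuron markers were higher in 4 of 8 tested and lower in 0, beside 13.5% higher and 7.51% lower of all tested genes. Their median was 0.54, and *elavl3*, *elavl4* and *gap43* are also in the newborn list. The TMM-scaled sums were 108815 to 137959 in *mtmr5*-KO and 60589 to 79175 in WT libraries. Those calls too depended on the scale. With library totals 0 neuron markers were higher and 3 lower (median -0.41), where 3.70% and 55.7% of all tested genes were. Their raw count sums were 72911 to 92211 in *mtmr5*-KO and 103980 to 113848 in WT libraries.

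Radial and Müller glia markers, which share cells with *sox2*, were at TMM-scaled sums of 21010.0 to 29321 in *mtmr5*-KO and 25313 to 28010 in WT libraries. Of 7 tested, *rlbp1a* was higher (0.62), *her4.1*, a Notch target in progenitors, was lower (-0.74), and the median was 0.01. Over all tested genes 13.5% were higher and 7.51% lower. With library totals 0 of the 7 were higher and 5 lower, where 3.70% and 55.7% of all tested genes were. Skeletal muscle markers were higher in 4 of 5 and lower in 1 (median 1.23), liver markers higher in 5 of 5 (2.16), and inner ear markers higher in 3 of 4 and lower in 1 (1.25), beside 13.5% higher and 7.51% lower of all tested genes. With library totals all 5 liver markers stayed higher, and muscle and inner ear markers had 0 higher and 1 lower each. On that scale 3.70% of all tested genes were higher and 55.7% lower. With TMM scaling, oligodendrocyte and Schwann markers had 1 higher and 1 lower of 5, beside 13.5% higher and 7.51% lower of all tested genes. With library totals they had 0 higher and 4 lower.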

How the data were processed

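RNA of pooled heads was sequenced in 4 *mtmr5*-KO and 4 WT libraries. The authors used Trim Galore 0.6.7 for trimming, STAR 2.7.11a for alignment to GRCz11 and HTSeq 2.0.5 for gene counts from uniquely mapped reads, as the paper and the submitters' notes state. The sources used here do not say whether counting used strand. In RefSeq (GRCz12tu) 5 of the 10 genes overlap another gene: *sox1a* overlaps *rev1*, *sox2* overlaps *sox2ot*, and *sox3*, *sox19a* and *sox11b* each overlap a long non-coding RNA. Their reads may not have been told apart.

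The deposited raw counts, whole numbers for 32520 rows, were used for all results. The deposited normalized values, a signal made by the authors as raw counts over 1 size factor per library, were used only for an alternative ratio.

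Counts were tested with edgeR 4.0.16 in R 4.3.3 (TMM, robust glmQLFit and glmQLFTest, genotype as the only term) on 19412 genes that reached 10 counts in 3 or more libraries, with Benjamini-Hochberg adjustment and a threshold of 0.05. SE is the log2 fold change over the square root of F. Within-library log2 ratios used a pseudocount of 0.5. The fits were tested on simulated data. Alternatives were DESeq2 1.42.0, limma 3.58.1 (voom), other scalings and filters, the replicate number as a block, and fits with libraries left out. Figures were drawn with matplotlib 3.10.9.

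The 10 genes and all lists were chosen with earlier results of these data known. Named genes were the 10 members, *sbf1*, every other Sox gene past the threshold, up to 4 genes per list with the smallest p, and the 3 nearest profiles of *sox2* and *sox11a*, the SoxB1 and SoxC genes with the highest means. Other genes named for their role or group were chosen after their values were seen, namely *sox5*, *sox8b*, *sox9b*, *sox10*, *sox21a*, *sox2ot* and *linc.sox4a*, and *gap43* for its place in both neuron lists. So were *tubb5*, *stmn1a*, *stmn2b* and *dclk2a*, the genes called lower in the list of newborn and differentiating neurons. *snap25a* was named outside these rules, as an abundant neuronal marker.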

Additional observations from a re-analysis of the deposited data

Results flagged for a closer look

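Within each group of 4 libraries, the level of a Sox gene or a ratio of Sox counts was examined for a library far from the other 3. Of 44 such groups, 2 held one, where chance gives about 1 in 20. The ratios reuse the counts of the genes, so the groups were not all separate. Both were *mtmr5*-KO replicate 2. For *sox1b* that library had 286 TMM-scaled counts, against 139 to 163 in the other 3 *mtmr5*-KO libraries. For *sox4b* it had 1228, against 929 to 973 in the other 3.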

How the results depend on the processing

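The count of members higher, 1, was 0 with library totals, with TMM factors set without mitochondrial genes, crystallins and the most abundant rows, with only *mtmr5*-KO replicates 1 and 2, and at the stricter thresholds, and it was 0 to 1 with single libraries left out. The count of members lower, 5, was 8 with library totals 2 at the stricter thresholds, 7 with those TMM factors (adding *sox3* and *sox19b*) and 4 with only *mtmr5*-KO replicates 1 and 2 (losing *sox1b*). Among the 10 members and the other Sox genes called with TMM, 3 log2 fold changes reversed with library totals, as the whole scale moved. These were *sox11a* to -0.42, *sox11b* to -0.41 and *sox13* to -0.43. Uncalled Sox genes such as *sox8b*, *sox9b* and *sox10* turned negative as well. The *mtmr5*-KO minus WT difference of the *sox11a*/*sox11b* log2 ratio, -0.02, was -0.26 to 0.22 with single libraries left out. The log2 difference of SoxC over SoxB1, 0.73, was 0.18 without *sox11a*. The sources say that replicates came over time from different breeding pairs and that WT larvae were siblings, but not that a number marks one pair. Same-numbered deviations correlated at 0.070 to 0.140, not all over 0.1, and each *mtmr5*-KO library matched its own number best, a hint of pairing from the data and not the design. With the replicate block 6 members were lower, *sox3* added (edgeR adjusted p = 0.0188), and *sox11a* had an adjusted p of 0.00026. *sox11a* was above the same-numbered WT library in 4 of 4 pairs and *sox11b* in 3. The SoxB1 genes, *sox4a* and *sox4b* were above it in 0 of 4. Of these, *sox19b* (edgeR adjusted p = 0.0738) and *sox4b* (0.215) were not called with the block. Such pairs were not counted over all tested genes. In exact sign flips over the 4 numbers, whose smallest p is 0.125, *sox1a*/*sox1b*, *sox19a*/*sox19b* and *sox4a*/*sox4b* were each at 0.125. Over all genes, 2618 were higher and 1457 lower, against 719 and 10819 with library totals, 1576 and 795 with *mtmr5*-KO replicates 1 and 2 only, 1384 and 209 at the stricter thresholds, 2879 and 2264 with the replicate block, and 741 or 836 lower without WT replicate 2 or 3. The share of higher calls, 64.2%, was 6.23% with library totals. Among the 10 genes *sox11b* had the fewest counts and the largest SE.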

Other observations

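Separate non-coding genes named after members were counted at low numbers. *sox2ot*, which overlaps *sox2*, had 1, 4, 12 and 18 raw counts in *mtmr5*-KO libraries and 17, 24, 10 and 12 in WT libraries. With TMM scaling its log2 fold change was 0.61 ± 0.78 (edgeR adjusted p = 0.630), and with library totals it was -0.48. *linc.sox4a* had 12, 6, 0 and 9 raw counts in *mtmr5*-KO libraries, against 36, 30, 37 and 35 in WT libraries. It was not called (TMM log2 fold change -1.05 ± 0.68, edgeR adjusted p = 0.300), and was at -1.96 with library totals.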
